A study of Homo sapiens with 6 samples.

Results

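The genes described here are known feedback and output genes of the ERK pathway, namely DUSP4, DUSP5, DUSP6, SPRY2, SPRY4, SPRED1, ETV4, ETV5, PHLDA1 and EGR1. The genes were picked by symbol as genes known to be induced by ERK signaling, and all 10 were found, each on 1 row, among the 58884 rows of the expression matrix. These genes and the lists of other genes below were chosen with earlier results of these data known. Their counts and medians set beside those of all genes are therefore descriptions. RNAseq compared KYSE450, an established human esophageal squamous cell carcinoma line with wild-type NRF2, with KEAP1null-KYSE450, in 3 libraries per line. KEAP1null-KYSE450 was made from KYSE450 by CRISPR-Cas9 with a guide against KEAP1 exon 2, followed by single-cell cloning. It is therefore 1 clone, and the loss of KEAP1 and any other difference of the clone cannot be told apart. Both lines were untreated and grew in RPMI1640 medium with fetal bovine serum. Nothing in the sources used here says that the 3 libraries of a line came from separate cultures, so p-values measure the spread between libraries, which may be technical. KEAP1 is the adaptor that marks NRF2 for degradation, and its loss is used as a model of wild-type NRF2 activation.

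Growth factor receptors signal through RAS, RAF and MEK to ERK, a kinase that enters the nucleus and changes the activity of transcription factors. Many genes induced by ERK encode proteins that act back on the pathway. DUSP phosphatases remove the activating phosphates from ERK, SPRY and SPRED proteins act upstream between the receptor and RAF, and ETV4, ETV5 and EGR1 are transcription factors. In squamous epithelium the pathway is driven largely by EGFR and its ligands.

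The 10 genes did not move together. ETV5 and EGR1 rose and PHLDA1 and DUSP5 fell in KEAP1null-KYSE450, all by more than 2-fold. ETV4, DUSP6 and SPRED1 were higher by less than that, and DUSP4, SPRY2 and SPRY4 did not pass the test. A gene was called where the adjusted p of limma (Benjamini-Hochberg) was under 0.05 and the absolute log2 fold change was at least 1. By that rule 2 of the 10 genes were called higher and 2 lower, where 12.2% and 5.99% of the 16689 genes tested were called higher and lower. By the adjusted p alone 5 were higher and 2 lower, beside 24.3% and 25.5% of all genes tested, or 49.8% in either direction. The 3 libraries of one line all lay on one side of the other line's for 8 of the 10 genes, beside 57.8% of all genes tested. The median log2 fold change was 0.40 for the 10 genes and 0.0040 for all genes tested. The median size of the change, without its sign, was 0.71 and 0.42 on the same scale. These are bulk samples, in which fewer cells of a type and less RNA per cell cannot be told apart.

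**Figure D1:**
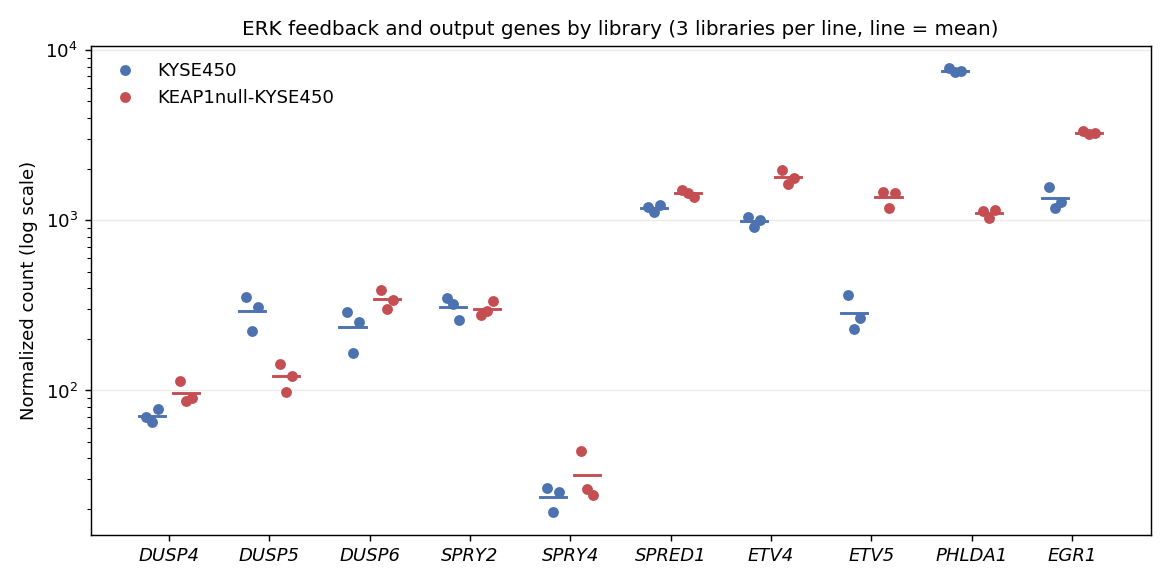
Normalized count on a log axis for each of the 10 genes, with 1 point per library (3 per line) and a bar at each line's mean. The points of PHLDA1, ETV5, EGR1, DUSP5 and ETV4 lie far apart between the lines, while those of SPRY2 and SPRY4 overlap.

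Of the ERK phosphatases, DUSP5 fell and DUSP6 was higher by the adjusted p alone, a difference that did not hold under every setting. DUSP5 (ENSG00000138166, chr10:110497907-110511533, plus strand, hg38), which acts on ERK in the nucleus, had normalized counts of 353, 222 and 309 in KYSE450 and 144, 97.9 and 121 in KEAP1null-KYSE450. Every KEAP1null-KYSE450 library lay below every KYSE450 library. The mean fell from 295 ± 66.4 to 121 ± 23.0 (SD, n = 3 per line), a log2 fold change of -1.27 (SE 0.22, 95% interval -1.74 to -0.80, adjusted p = 0.000427, limma). DUSP6 (ENSG00000139318, chr12:89347235-89352501, minus strand), a cytoplasmic phosphatase of ERK, had normalized counts of 289, 166 and 253 in KYSE450 and 388, 302 and 338 in KEAP1null-KYSE450. The lines did not overlap, although the highest KYSE450 library and the lowest of the clone were close. DUSP6 had a log2 fold change of 0.57 (SE 0.21, 95% interval 0.12 to 1.01, adjusted p = 0.0364, limma), under the fold limit. The difference rested on KYSE450 library 2, the lowest, since without it the log2 fold change was 0.33 (adjusted p = 0.164, limma), and leaving out library 1 or library 3 of the clone also took the adjusted p past 0.05 (0.118 and 0.0864, limma). It also lost the test under quantile normalization (log2 fold change 0.41, adjusted p = 0.125, limma). In KYSE450 less DUSP6 than DUSP5 was measured per kb of exon, with ratios of 0.537, 0.490 and 0.538 in the 3 libraries. In KEAP1null-KYSE450 the ratios were 1.77, 2.03 and 1.83, so the order of the pair was turned in every library.

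DUSP4 (ENSG00000120875), an inducible nuclear phosphatase with a wider range of MAP kinase substrates, had normalized counts of 69.5, 65.7 and 78.3 in KYSE450 and 113, 86.7 and 89.8 in KEAP1null-KYSE450. The libraries of the lines did not overlap, yet the spread in the clone was wide and the test was not passed. DUSP4 had a log2 fold change of 0.43 (SE 0.23, 95% interval -0.08 to 0.94, adjusted p = 0.146, limma), an interval that holds both no change and a change near 2-fold. The 56 tested genes that start within 5 Mb of DUSP4 had a median log2 fold change of 0.23. Of them 15 were called higher and 1 lower, beside 12.2% and 5.99% of all genes tested. The part of this region in the DUSP4 values was not tested.

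The Sprouty and SPRED inhibitors had the smaller differences of the set. SPRED1 (ENSG00000166068, chr15:38252836-38357249, plus strand), which brings neurofibromin to RAS at the membrane, had normalized counts of 1201, 1119 and 1229 in KYSE450 and 1514, 1450 and 1378 in KEAP1null-KYSE450. All libraries of the clone were higher than all of KYSE450. SPRED1 had a log2 fold change of 0.29 (SE 0.10, 95% interval 0.07 to 0.51, adjusted p = 0.0318, limma). Leaving out 1 library at a time moved it between 0.25 and 0.33, and 4 of the 6 such fits took the adjusted p past 0.05. Those were the fits without KYSE450 library 2 (0.124, limma) and without libraries 1, 2 or 3 of the clone (0.0832, 0.0927 and 0.0537, limma).

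SPRY2 (ENSG00000136158, chr13:80335976-80341126, minus strand), an inhibitor of receptor tyrosine kinase signaling upstream of RAF, had normalized counts of 349.7, 322 and 260.1 in KYSE450 and 277, 295 and 336 in KEAP1null-KYSE450. The libraries of the lines were intermixed. The log2 fold change was -0.033 (SE 0.16, 95% interval -0.39 to 0.32, adjusted p = 0.884, limma), so a change of 2-fold either way lay outside the interval. SPRY4 (ENSG00000187678, chr5:142310427-142326455, minus strand), a relative with a like role, had the lowest level of the 10 genes, at 26.7, 19.2 and 25.2 in KYSE450 and 44.3, 26.5 and 24.2 in KEAP1null-KYSE450. Only the first library of the clone stood above the KYSE450 range. Its log2 fold change was 0.37 (SE 0.39, 95% interval -0.47 to 1.20, adjusted p = 0.452, limma), and its sign turned under quantile normalization, to -0.15. Without library 1 of the clone it was 0.11 (adjusted p = 0.853, limma), and without KYSE450 library 2 it was 0.23 (adjusted p = 0.694, limma). At this level an absent change and a 2-fold rise could not be told apart.

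ETV5 (ENSG00000244405, chr3:186046314-186110318, minus strand), an ETS transcription factor of the PEA3 group that ERK signaling induces, had the largest rise of the 10 genes. Its normalized counts were 365, 229 and 267 in KYSE450 and 1466, 1182 and 1444 in KEAP1null-KYSE450. The lowest library of the clone held over 3 times the highest of KYSE450. The mean rose 4.75-fold, from 287 ± 69.9 to 1364 ± 158 (SD, n = 3 per line), with a log2 fold change of 2.27 (SE 0.17, 95% interval 1.90 to 2.63, adjusted p = 4.04e-07, limma). That value lies at percentile 96.4 of the log2 fold changes of all genes tested. ETV4 (ENSG00000175832, chr17:43527844-43579620, minus strand), of the same group, was the more abundant of the pair. Its normalized counts were 1044, 918 and 1000.4 in KYSE450 and 1974, 1631 and 1764 in KEAP1null-KYSE450, again without overlap. The log2 fold change was 0.86 (SE 0.11, 95% interval 0.61 to 1.10, adjusted p = 5.1e-05, limma), under the fold limit. Per kb of exon the ratio of ETV5 to ETV4 was 0.213, 0.152 and 0.162 for KYSE450 and 0.452, 0.441 and 0.498 for the clone. ETV5 thus gained on ETV4 in every library while ETV4 stayed the higher of the pair. Genes sharing exon bases with them were few. DGKG, on the strand of ETV5, shares 164 of the 5773 exon bases and was at 0 in KYSE450 and at 34.1, 22.4 and 13.1 in the clone. DHX8, on the strand opposite to ETV4, shares 68 of 3515 exon bases and fell (log2 fold change -0.70, adjusted p = 0.000737, limma). Whether reads were counted by strand is not given in the sources used here.

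**Figure D2:**
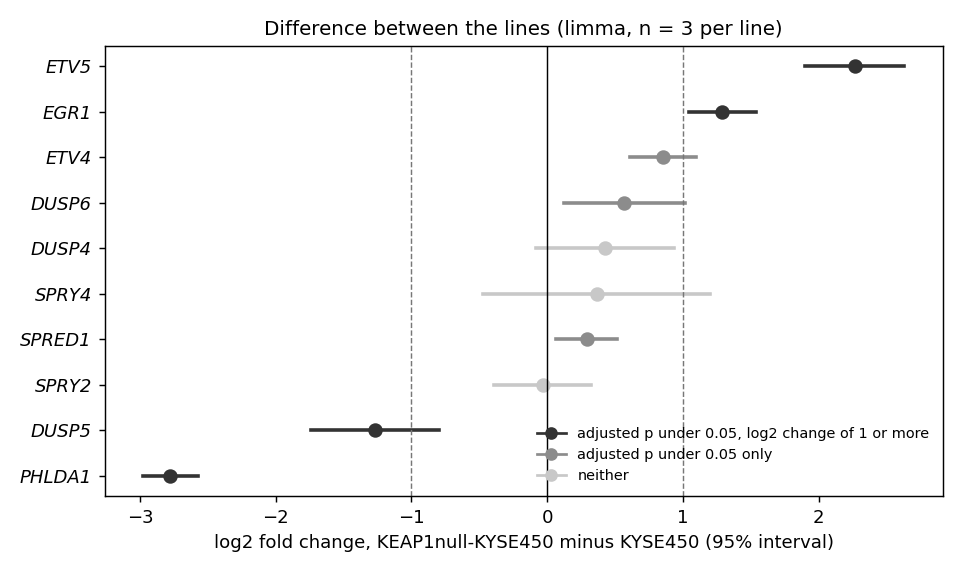
Log2 fold change of each of the 10 genes, KEAP1null-KYSE450 minus KYSE450, with the 95% interval from limma as a line and the limits of the fold rule dashed. The intervals of ETV5 and EGR1 lie above 1, those of ETV4, DUSP6 and SPRED1 above 0, that of PHLDA1 below -1, that of DUSP5 below 0, and those of DUSP4, SPRY2 and SPRY4 cross 0.

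EGR1 (ENSG00000120738, chr5:138465479-138469303, plus strand), a zinc finger transcription factor and the textbook immediate-early gene of growth factor signaling, rose 2.43-fold. Its normalized counts were 1575, 1178 and 1283 in KYSE450 and 3349.5, 3195 and 3264 in KEAP1null-KYSE450. Every library of the clone lay far above every KYSE450 library, and the clone's libraries lay close together. The log2 fold change was 1.29 (SE 0.12, 95% interval 1.04 to 1.54, adjusted p = 2.13e-06, limma). ERK is known to reach this gene through serum response factor and its partner ELK1. Serum response factor binds CArG boxes, runs of A and T between CC and GG. The RefSeq promoter (GRCh38.p14, chr5:138465229-138465528, plus strand) runs from 250 bases before the start site to 50 bases from it on. It is shown, with the boxes in capitals, because EGR1 alone held such a box among the 6 genes whose promoters were searched.
EGR1: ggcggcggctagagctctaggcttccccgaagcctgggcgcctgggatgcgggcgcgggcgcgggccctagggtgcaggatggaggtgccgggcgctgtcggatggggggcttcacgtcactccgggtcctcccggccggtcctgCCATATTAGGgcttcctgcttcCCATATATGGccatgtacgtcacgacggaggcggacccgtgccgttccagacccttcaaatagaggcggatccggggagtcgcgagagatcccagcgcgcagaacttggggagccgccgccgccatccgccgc
The search found 2 CArG boxes, CCATATTAGG at bases -105 to -96 and CCATATATGG at bases -83 to -74 from the start site, the latter overlapping an ETS core GGAA on the other strand. Of 35116 promoters of this length, 1.29% held a CArG box. A match is a description of the letters and not a bound site.

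PHLDA1 (ENSG00000139289, chr12:76025447-76031776, minus strand), a pleckstrin homology-like domain protein whose transcript is induced by ERK, fell the most and had been the most abundant of the 10. Its normalized counts were 7831, 7387 and 7529.7 in KYSE450 and 1137, 1028 and 1155 in KEAP1null-KYSE450. The lines were separated by a wide gap and each line's libraries were tight. The mean fell 6.85-fold, from 7583 ± 227 to 1107 ± 69.0 (SD, n = 3 per line), with a log2 fold change of -2.78 (SE 0.093, 95% interval -2.98 to -2.57, adjusted p = 2.11e-10, limma), at percentile 1.26 of all genes tested. PHLDA1-AS1, on the opposite strand, shares 553 of the 5913 exon bases of PHLDA1 and fell as well. It had 21.4, 34.4 and 28.0 normalized counts in KYSE450 and 0, 4.08 and 0 in the clone (log2 fold change -4.05, adjusted p = 0.00102, limma). The promoter of PHLDA1 (GRCh38.p14, chr12:76031727-76032026, minus strand) is shown to set beside that of EGR1, since the pair moved in opposite directions, with ETS cores (GGAA, or TTCC where it is on the other strand) in capitals.
PHLDA1: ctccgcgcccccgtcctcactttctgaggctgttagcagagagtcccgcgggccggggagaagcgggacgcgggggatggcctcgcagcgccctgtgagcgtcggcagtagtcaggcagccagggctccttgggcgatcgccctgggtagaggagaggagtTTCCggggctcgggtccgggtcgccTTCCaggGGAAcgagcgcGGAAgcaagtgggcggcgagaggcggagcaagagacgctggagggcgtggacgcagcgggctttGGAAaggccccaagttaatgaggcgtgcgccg
It held 5 ETS cores and EGR1 4, a motif so short that 95.5% of all promoters of this length held at least 1. Promoters were searched for 6 genes (EGR1, PHLDA1, DUSP6, SPRED1, SPRY2 and SPRY4). None of these held the AP-1 site TGANTCA, which 7.71% of all promoters held. The antioxidant response element core TGACNNNGC, the motif known for NRF2, was held by SPRY4 alone and by 13.3% of all promoters. The octamers known for the repressor CIC, TGAATGAA and TGAATGGA, were held by none of the 6 and by 2.63% of all promoters. All motifs were searched on both strands.

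Per kb of exon, the make-up of the set was exchanged while its summed level was close, at 2482 normalized counts per kb in KYSE450 and 2410.2 in KEAP1null-KYSE450. PHLDA1 was 51.7% of that sum in KYSE450 and 7.76% in the clone. EGR1 was 17.3% and 43.2%, ETV4 11.3% and 21.1%, and ETV5 2.00% and 9.80%. The order of the levels per kb in KYSE450 ran from PHLDA1 (1282) and EGR1 (429) through ETV4 (281), SPRED1 (153), DUSP5 (116), SPRY2 (96.7), DUSP6 (61.1) and ETV5 (49.7) to DUSP4 (9.79) and SPRY4 (3.62). In KEAP1null-KYSE450 it ran from EGR1 (1042) and ETV4 (509) through ETV5 (236), PHLDA1 (187), SPRED1 (186.7), SPRY2 (94.1), DUSP6 (88.7) and DUSP5 (47.7) to DUSP4 (13.3) and SPRY4 (4.83). The libraries of neighbors in that order overlapped for DUSP5 and SPRY2 and for DUSP6 and ETV5 in KYSE450, and for PHLDA1 and SPRED1 and for SPRY2 and DUSP6 in the clone. Per kb, EGR1 over PHLDA1 gave 0.379, 0.300 and 0.321 for KYSE450 and 5.55, 5.86 and 5.33 for the clone, so the pair changed places in every library.

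**Figure D3:**
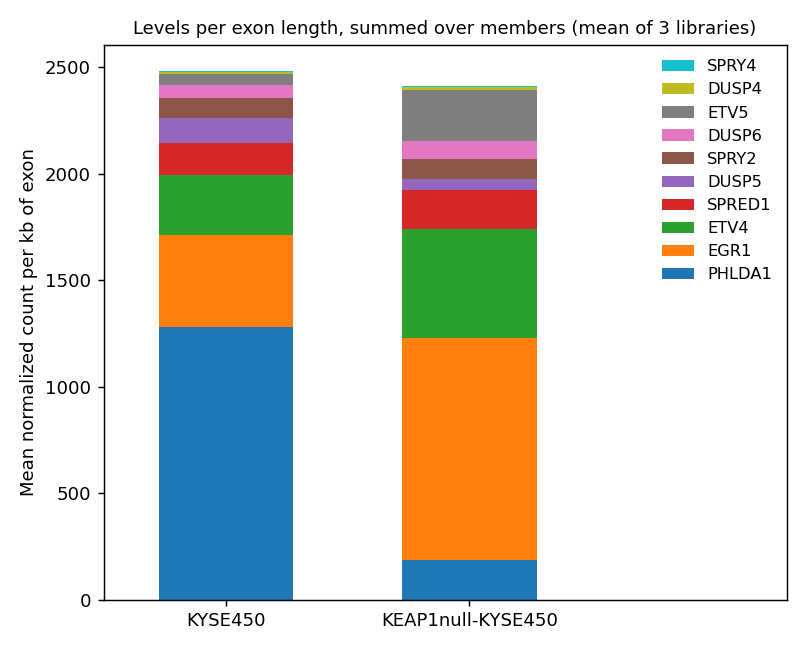
Mean level of each of the 10 genes per kb of exon over 3 libraries, stacked in a bar for KYSE450 and a bar for KEAP1null-KYSE450 on a linear axis. PHLDA1 is the largest part in KYSE450 and EGR1 in the clone, and SPRY4 is the smallest in both.

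The libraries of a line also differed among themselves. KYSE450 library 2 was the lowest of its line for 9 of the 10 genes, while it was lowest for 27.6% of all genes tested. KYSE450 library 1 was the highest for 8 of the 10 (43.5% of all genes), and library 1 of the clone was the highest for 8 (42.4%). The coefficient of variation had a median of 15.1% in KYSE450 and 10.8% in the clone over the 10 genes, beside 13.1% and 10.8% over all genes tested. The members' summed normalized counts were 11626 to 13104 in KYSE450 and 9292 to 10407 in the clone. Without PHLDA1 they were 4239 to 5273 and 8264 to 9270, so the direction of a sum over the 10 genes depended on that gene.

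Genes around most of the 10 had medians near 0. The tested genes starting within 5 Mb of a gene had median log2 fold changes between -0.19 (SPRY2, 16 genes) and 0.23 (DUSP4). Around PHLDA1 the median was 0.029 over 31 genes, around ETV5 0.0071 over 68, around EGR1 0.12 over 112 and around DUSP5 0.073 over 28. DUSP6 shares 1105 of its 3859 exon bases with the lncRNA ENSG00000274021 on the other strand, which had between 3.03 and 18.5 normalized counts.

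Of the 8 lists of other genes of the pathway, 105 of 108 genes were tested. In all, 6 were called higher and 22 lower, where 12.2% and 5.99% of all genes tested were called higher and lower. By the adjusted p alone 13 were higher, 49 lower and 43 not past the test, beside 24.3% and 25.5% of all genes tested higher and lower. The median log2 fold change of the list genes was -0.24, beside 0.0040 over all genes tested. These shares are also the background of the counts for each list. They depended on the filter for low genes. With a mean of at least 100, 874 of 12338 genes tested were called higher and 683 lower. Of the list genes, 5 and 18 were then called higher and lower. Among the relatives of the 10 genes, 3 of 16 were called higher and 4 lower (median -0.33). The relatives were listed by gene family and not by action on ERK, and did not always move as the members did. SPRY3 (log2 fold change 2.01), SPRY1 (1.66) and SPRED3 (1.19) rose, beside SPRY2 without a called change. The phosphatase genes DUSP10 (-3.01), DUSP8 (-2.11) and DUSP9 (-1.29) and the PHLDA1 relative PHLDA2 (-1.48) fell, all by limma with an adjusted p of 0.000907 or less among these 7. DUSP7 (-0.93), DUSP16 (0.54) and SPRED2 (-0.68) passed the adjusted p alone. ETV1, DUSP1, DUSP2, PHLDA3, EGR2 and EGR3 passed neither, and EGR4 was too low to be tested.

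Of 9 other ERK-induced output genes 6 were called, all lower (median -1.64). By the adjusted p alone MYC was higher (log2 fold change 0.30, adjusted p = 0.0236, limma) and FOSL1 lower (-0.56, adjusted p = 0.0124, limma). CCND1 passed neither (-0.21, adjusted p = 0.148, limma). EPHA4, a receptor tyrosine kinase, went from 113, 125 and 115 normalized counts in KYSE450 to 2.77, 6.12 and 0 in the clone, a log2 fold change of -5.31 (from -6.60 to -3.33 over 18 other settings). PLAUR (-2.73), the urokinase receptor, IER3 (-2.46), CXCL8 (-2.00), the chemokine interleukin-8, and EPHA2 (-1.64) were lower as well. Of 10 serum and stress immediate-early genes, 2 were called, both lower (JUNB at -1.02 and IER5 at -1.02, median -0.73), whereas EGR1, a gene of the same kind, rose. FOS, chosen here after its values were seen, had 130, 151 and 93.2 in KYSE450 and 131, 102 and 99.9 in the clone, with overlap.

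The receptor ligands were split, with 2 called higher and 4 lower of 8 tested. EGF was at 13.9, 21.2 and 41.0 in KYSE450 and 680, 596 and 482 in the clone (log2 fold change 4.60), and BTC, another EGFR ligand, rose (1.27). AREG was at 1446, 1396 and 1485 in KYSE450 and 50.8, 90.7 and 102 in the clone (log2 fold change -4.20). EREG (-4.41), HBEGF (-1.55) and TGFA (-1.31) were lower too, and all of these bind EGFR. EGFR itself had a log2 fold change of 0.0047, and among the 10 receptors FGFR2 alone was called (-1.21). Of 22 adaptor, RAS, RAF, MEK and ERK genes 1 was called higher, GAB1 (2.18), a docking adaptor downstream of receptors. Called lower were 2, KSR1 (-1.66), a scaffold of the kinase cascade, and HRAS (-1.17). By the adjusted p alone 1 of the 22 was higher and 9 lower (median -0.21). Of 13 other brakes on the pathway, such as NF1, the gene of neurofibromin, 4 were higher and 2 lower by the adjusted p alone, each by less than the fold limit. Of 17 nuclear partners and substrates 3 were called, all lower, namely ETS1 (-3.63), ETS2 (-1.07) and ATXN1 (-1.01). By the adjusted p alone 0 of the 17 were higher and 9 lower (median -0.34). JUNB, IER5, ETS2, ATXN1, SPRED3 and KSR1 each lost its call under at least 1 other setting.

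**Figure D4:**
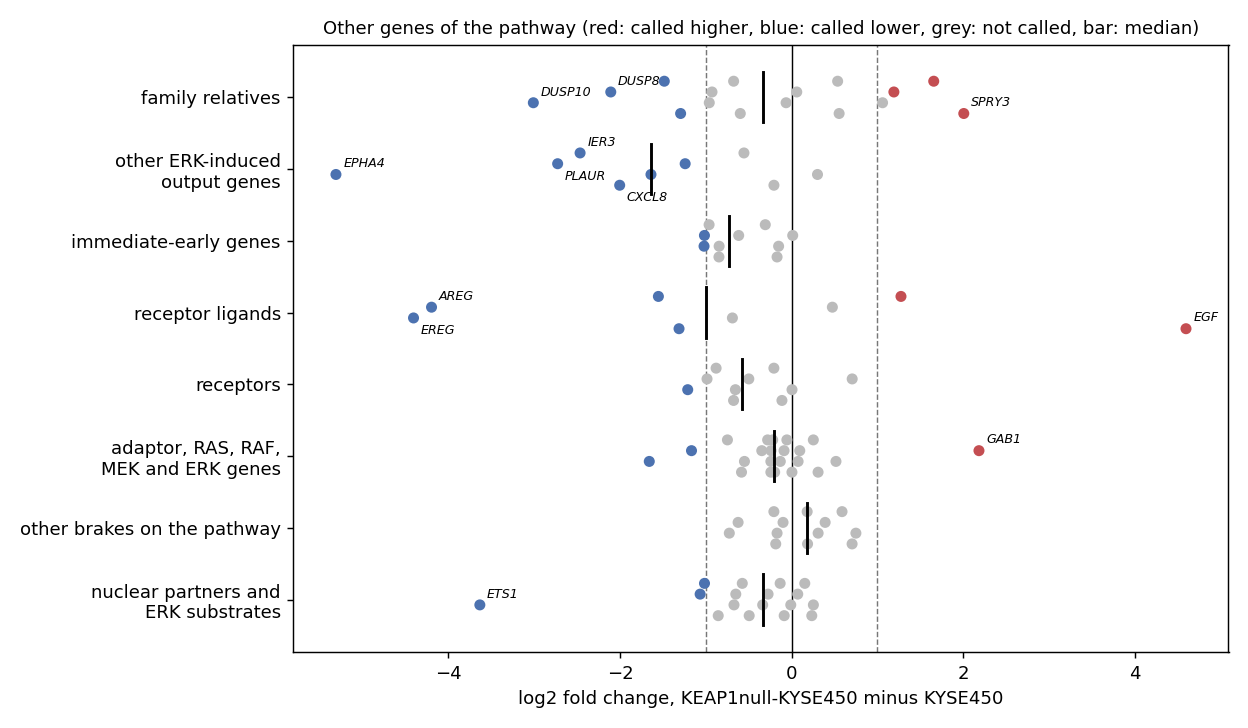
Log2 fold change, KEAP1null-KYSE450 minus KYSE450, of the 105 tested genes of the 8 pathway lists, 1 point per gene, red where called higher, blue where called lower and grey otherwise, with a bar at each list's median. Most list medians lie below 0, and EGF and EPHA4 are the points farthest from it.

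Features of the whole data set stood beside these differences. KEAP1 mRNA, from the edited gene, overlapped between the lines (5146 to 5760 in KYSE450 and 4906 to 5737 in KEAP1null-KYSE450), with a log2 fold change of -0.017 (adjusted p = 0.90, limma), so it does not check the labels, while the NRF2 targets NQO1 (2.70) and GCLM (3.36) were higher in the clone. All 8 squamous epithelium markers were measured in both lines, 1 called higher (KRT5) and 3 lower (KRT6A, KRT14 and KRT17). By the adjusted p alone 2 were higher and 6 lower. Their summed normalized counts were 358666 to 476619 in KYSE450 and 576069 to 718571 in the clone, with KRT5 the largest part. Mean KRT5 rose from 208100 to 568248. Mean KRT6A fell from 71578 to 2738 and mean KRT17 from 50937 to 1763, and KRT14 fell to between 30.5 and 41.8. Of 6 fibroblast markers 1, COL1A1, was high enough to test, and of 5 leukocyte markers 0 were. Reads of mitochondrial genes were 2.04% to 2.83% of KYSE450 libraries and 3.92% to 4.65% of those of the clone. Of all called genes 67.2% were higher, and 51.9% with quantile normalization. The part of these differences in the values of the 10 genes was not tested.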

How the data were processed

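RNAseq values of 6 libraries, 3 of KYSE450 and 3 of KEAP1null-KYSE450, were analyzed. The deposited values are normalized counts (a signal for each gene in each library). Per the methods and labels, the authors trimmed and aligned reads to hg38 (STAR 2.6.90c), counted them per gene (featureCounts 1.5.1) and normalized the matrix. The columns name the line but no replicate, so libraries were numbered by column order within a line. The lower values of each library were checked, and each was a whole multiple of its library's step, to within 0.05 of a read. Higher values were rounded to the nearest whole read without that check. This gave 53027359 to 61543442 reads per library (in KYSE450 library 2 and library 3 of the clone the step was too near 1 to be sure) and a floor of 3 reads of 2.77 to 3.21 normalized counts, for counting error only.

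The lines were compared by moderated linear models in limma 3.58.1 under R 4.3.3 (eBayes, trend on, two-sided) on log2(normalized count + 1) for 16689 genes whose mean reached 10, adjusted by the Benjamini-Hochberg method. Fold changes on this scale understate those of low genes. Levels per kb used exon lengths of gencode v44 for hg38, and promoters were RefSeq's. Named genes were the 10 genes, KEAP1, NQO1, GCLM, up to 5 called genes per list and direction, and relatives of the 10 genes. FOS, EGFR, MYC, FOSL1 and CCND1 were chosen after seeing their values. The members and lists were chosen with earlier results of these data known. The tests were tried on simulated data. The alternatives were other pseudocounts (0.1 and 10), filters, scalings, 1 library left out, summed rows, eBayes without trend and, on recovered reads of 4 libraries or of all 6, edgeR (version 4.0.16) and DESeq2 (version 1.42.0); the fits to all 6 were added after seeing the data. Promoters of DUSP4, DUSP5, ETV4 and ETV5 were not used here, so the motif statements leave out DUSP5 and ETV5, which were called. The 6 genes searched had 8 promoters, SPRY2 having more than 1, and the shares of all promoters are per promoter and not per gene.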

Additional observations from a re-analysis of the deposited data

How the results depend on the processing

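Across 19 other settings DUSP5 (log2 fold change -1.51 to -1.13), ETV5 (2.06 to 2.45), PHLDA1 (-2.83 to -2.67) and EGR1 (1.19 to 1.41) were called every time. ETV4 (0.78 to 0.92) passed the adjusted p every time, DUSP6 (0.33 to 0.73) in 11 settings and SPRED1 (0.25 to 0.37) in 13. DUSP4 (0.03 to 0.50, in 18), SPRY2 and SPRY4 passed in none. Signs turned for values near 0: SPRY2 (-0.16 to 0.058 with 1 library left out) to 0.058 without KYSE450 library 1 and 0.029 without library 1 of the clone, SPRY4 to -0.15 under quantile normalization, and KEAP1 to 0.016 with equal totals, 0.14 under quantile normalization, 0.034 without KYSE450 library 1, 0.040 without library 2 of the clone (-0.072 to 0.040 with 1 library left out), and 0.017 with edgeR on all 6 libraries. The cause was not tested. With 1 library left out, 2 of the 10 genes were called higher and 2 lower each time, and list genes 6 to 7 higher and 18 to 26 lower. With no fold limit, by construction, 5 of the 10 genes were higher, 13 list genes were higher and 49 lower, and over all genes 4058 were higher and 4251 lower (2043 and 999 with it). A mean of at least 100 left 874 called higher and 683 lower, which is 56.1% higher against 67.2%. At counts as low as those of SPRY4, depth limits what could be seen. No paired analysis was possible because the columns carry no replicate numbers.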
